A study of Mus musculus with 12 samples.

Results

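Transcripts of 9 mouse genes that build melanosomes and related organelles were followed in the iris of 4 strains that differ in pigmentation. The genes were Hps1 and Hps4 (the BLOC-3 complex), Hps3, Hps5 and Hps6 (BLOC-2), Dtnbp1 (BLOC-1), Ap3b1 and Ap3d1 (the AP-3 adaptor) and Vps33a (the HOPS tether). Members were all probe sets, the groups of short probes that measure a transcript on an Affymetrix array, that the platform annotation assigns to these genes, 16 of 45037 probe sets other than controls. All 9 genes were on the array. Of the 16 probe sets, 12 from 8 genes averaged at least 5.653 on the log2 scale, the filter on low values, and were tested. The single Hps5 probe set did not pass.

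Each strain gave 3 arrays of total RNA from adult iris at 60 days of age, each from the 4 eyes of 2 pooled animals. C57BL/6J was the pigmented reference. The B6-Lystbg-J strain (B6-Lyst here) is mutant for Lyst, a regulator of lysosome size and traffic, and the B6-(Cg)TyrC-2J strain (B6-albino) for Tyr, the gene of the melanin enzyme tyrosinase. The B6.D2(Tryp1-Gpnmb-)/SJ strain (B6-D2 congenic) carries the b allele of Tyrp1 (spelled Tryp1 in the labels) and the R150X allele of Gpnmb, both genes of melanosome proteins. The labels name no mutation in any of the 9 genes, and no treatment. The mutations are carried in every cell, and a whole iris holds pigment epithelium, stroma, muscle, vessels and immune cells together, so fewer cells of a type and less RNA per cell cannot be told apart.

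Melanosomes are lysosome-related organelles, and their enzymes reach them from early endosomes rather than by secretion. AP-3 and BLOC-1 sort cargo such as tyrosinase out of endosomes, BLOC-2 directs the transport carriers to the maturing melanosome, and BLOC-3 switches on the small GTPases Rab32 and Rab38 that recruit the fusion machinery. HOPS tethers late endosomal and lysosomal membranes before they fuse. Loss of BLOC or AP-3 subunits causes Hermansky-Pudlak syndrome, in which pale skin and eyes accompany a platelet granule defect. The mouse coat colour mutants pale ear (Hps1), light ear (Hps4), cocoa (Hps3), ruby-eye (Hps6), sandy (Dtnbp1), pearl (Ap3b1), mocha (Ap3d1) and buff (Vps33a) carry mutations in these genes.

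Promoter windows of all 9 genes, from 250 bases before to 50 bases after a RefSeq transcription start (GRCm38.p6, 10 windows in all), were searched on both strands for CACGTG and CATGTG, the E-box forms that MITF and its relatives TFEB and TFE3 are known to bind. CACGTG was found in windows of 4 of the 9 genes, Hps1, Hps3, Hps5 and Vps33a, and it stood in 7.15% of all 32851 promoter windows and in 9.26% of the 19938 windows with at least 50% G and C. CATGTG was found in 1 gene, Hps1, in 14.2% of all windows and in 10.1% of those with at least 50% G and C. Of the members with a match and a tested probe set, 3 are shown, with the matches in capitals, because their matches begin within 28 bases upstream of the start. A match is a string of letters and not a shown binding site. The Hps1 window (chr19:42779929-42780228, minus strand) holds CATGTG starting 14 bases and CACGTG starting 1 base upstream of the start site, the Hps3 window (chr3:20035261-20035560, minus strand) holds CACGTG 15 bases upstream, and the Vps33a window (chr5:123572966-123573265, minus strand) holds it 28 and 12 bases upstream.
Hps1: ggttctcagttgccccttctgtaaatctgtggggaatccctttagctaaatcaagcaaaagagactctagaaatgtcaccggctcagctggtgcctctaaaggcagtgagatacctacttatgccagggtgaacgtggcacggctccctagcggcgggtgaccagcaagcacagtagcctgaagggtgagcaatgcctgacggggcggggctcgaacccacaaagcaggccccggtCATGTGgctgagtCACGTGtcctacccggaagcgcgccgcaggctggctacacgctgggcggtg
Hps3: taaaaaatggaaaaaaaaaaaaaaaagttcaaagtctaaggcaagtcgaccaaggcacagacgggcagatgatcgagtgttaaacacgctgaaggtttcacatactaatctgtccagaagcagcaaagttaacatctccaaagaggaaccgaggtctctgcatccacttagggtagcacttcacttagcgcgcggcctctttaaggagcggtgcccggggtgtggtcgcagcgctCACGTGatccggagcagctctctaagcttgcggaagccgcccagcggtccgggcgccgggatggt
Vps33a: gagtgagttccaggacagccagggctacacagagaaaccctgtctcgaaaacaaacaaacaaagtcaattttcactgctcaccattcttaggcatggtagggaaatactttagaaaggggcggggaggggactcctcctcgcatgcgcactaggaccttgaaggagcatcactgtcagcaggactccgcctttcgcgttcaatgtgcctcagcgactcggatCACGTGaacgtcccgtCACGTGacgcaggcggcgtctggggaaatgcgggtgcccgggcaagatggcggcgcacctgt
By their tested probe sets, the fitted difference from C57BL/6J was negative for Hps3 and positive for Hps1 and Vps33a in all 3 mutant strains. None of these differences was called, and their relation to the matches was not tested. In the Hps5 window the CACGTG matches started 227 and 192 bases upstream.

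None of the 12 tested member probe sets passed the test in any comparison of strains. With limma and an adjusted p under 0.05, 0 of 12 were called in B6-Lyst against C57BL/6J, where 2.53% of all 27022 tested probe sets were called, 0 of 12 between B6-albino and C57BL/6J (0.348% of all) and 0 of 12 between B6-D2 congenic and C57BL/6J (0.0407% of all). The comparisons of mutant strains with each other, which test whether their differences from C57BL/6J differ, also gave 0 of 12 each: B6-Lyst against B6-albino (1.84% of all called), B6-Lyst against B6-D2 congenic (0.933%) and B6-albino against B6-D2 congenic (0.0851%). A test for any difference among the 4 strains called 0 of 12 (2.09% of all). With so few calls over the whole array, a count of 0 among 12 does not set these genes apart. At an unadjusted p under 0.05 limma gave 5 of 12 members between B6-Lyst and C57BL/6J (17.4% of all probe sets), 3 between B6-albino and C57BL/6J (19.4%), 4 between B6-D2 congenic and C57BL/6J (17.8%), 2 between B6-Lyst and B6-albino (19.1%) and 0 in the other 2 comparisons (9.7% and 8.49%). In the test over 4 strains the count was 4 (22% of all).

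For most members the data set a limit of 2-fold on the difference from C57BL/6J. That limit is wide: in B6-Lyst irides the 1st to 99th percentile over all tested probe sets ran from -0.82 to 1.06 (log2). The largest fitted difference from C57BL/6J was 0.60 on the log2 scale, for Dtnbp1 in B6-Lyst irides. The 95% interval of the difference lay within 2-fold in either direction for 10 of 12 probe sets in B6-Lyst irides, 11 of 12 in B6-albino and 11 of 12 in the B6-D2 congenic irides, and in all 12 between B6-Lyst and B6-albino. The exceptions against C57BL/6J were a probe set of Ap3b1 (1450915_at) in all 3 strains and Dtnbp1 in B6-Lyst. The members' median difference from C57BL/6J was 0.22 in B6-Lyst irides, 0.08 in B6-albino and 0.19 in the B6-D2 congenic irides, against -0.02, 0.03 and 0.01 over all tested probe sets. The median absolute difference of the members was 0.31, 0.19 and 0.27 in the same order, against 0.17, 0.19 and 0.18 over all. These 3 comparisons share the C57BL/6J arrays.

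**Figure D1:**
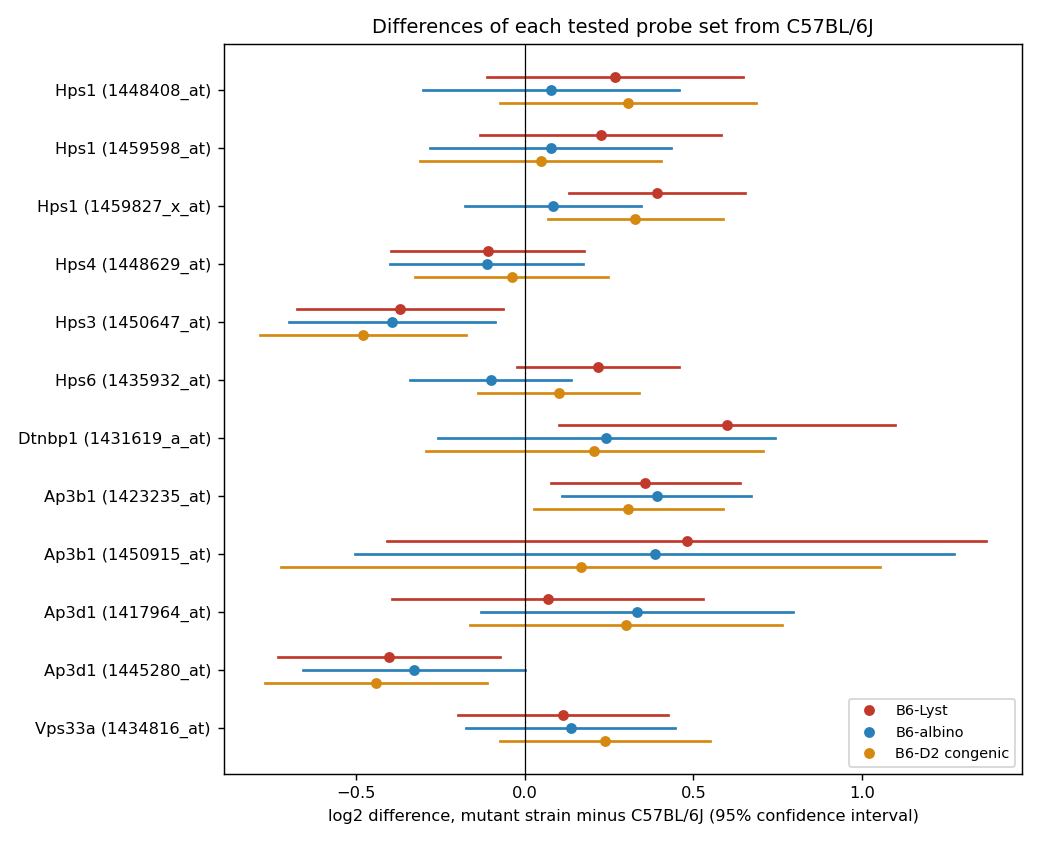
Log2 difference of each tested probe set from C57BL/6J (horizontal axis) with its 95% confidence interval, for B6-Lyst (red), B6-albino (blue) and B6-D2 congenic (orange) irides. Hps3 lies below 0 and Ap3b1 (1423235_at) above 0 in all 3 strains, and the widest intervals are those of Ap3b1 (1450915_at).

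The C57BL/6J arrays also stood apart in their control probe sets. Poly-A spike-in controls averaged 7.36 to 8.16 on the C57BL/6J arrays and 4.94 to 5.95 on the 9 mutant arrays, so the strain and this level cannot be told apart. C57BL/6J replicate 3 had an actin 3' minus 5' difference, a sign of RNA quality, of 4.30 against 1.84 to 2.72 on all other arrays. Krt12, a keratin of corneal epithelium, was at 12.86 on C57BL/6J replicate 1, 10.45 on B6-albino replicate 1 and 13.81 on the second B6-D2 congenic array, and between 5.96 and 7.12 on the others. Pigment cell markers (7 of 7 measured) averaged between 11.88 and 12.85 on every array, and both ends of that range were C57BL/6J arrays. The share of pigment cells in the samples was not tested. Of the mutated genes only Gpnmb was called in its own strain, B6-D2 congenic, at 9.33 ± 0.25 in that strain and 12.57 ± 0.62 in C57BL/6J (n = 3 each, difference -3.24, SE 0.28, limma adjusted p = 0.000807). With the marker means of lens, retina and cornea in the model the Gpnmb difference was -3.13 and the call was lost (adjusted p = 0.068), and its second probe set (1439345_at) differed by -1.48 without passing (adjusted p = 0.0613). Lyst in B6-Lyst irides differed by 0.03 (SE 0.29), Tyr in B6-albino irides by 0.26 (SE 0.29) and Tyrp1 in the B6-D2 congenic irides by 0.02 (SE 0.16). A mutation need not change what a probe set measures.

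Hps3, a BLOC-2 subunit, measured 8.95, 8.55 and 8.63 on the 3 C57BL/6J arrays, 8.41, 8.38 and 8.23 in B6-Lyst irides, 8.31, 8.45 and 8.19 in B6-albino and 8.38, 8.25 and 8.05 in the B6-D2 congenic irides (1450647_at). Every C57BL/6J array lay above every mutant array, and the mutant strains overlapped each other. The difference from C57BL/6J was -0.37 (SE 0.14, limma adjusted p = 0.191) in B6-Lyst irides, -0.39 (SE 0.14, adjusted p = 0.163) in B6-albino and -0.48 (SE 0.14, adjusted p = 0.152) in B6-D2 congenic animals. Against the mean of all 3 mutant strains, a comparison added after the values were seen, it was -0.41 (SE 0.11, adjusted p = 0.0828). That comparison called 0 of 12 members and 1.75% of all probe sets, with 4 of 12 members and 21.5% of all at an unadjusted p under 0.05. The adjusted p was 0.042 with quantile normalization, where the difference was -0.46. With the marker means of lens, retina and cornea added to the model the difference was -0.31 (adjusted p = 0.357), and without the 3 arrays with high Krt12 it was -0.30 (adjusted p = 0.255).

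The second Hps3 probe set (1459772_at) lay under the filter, between 4.24 and 4.66, where a level above background is not shown. It too had all 3 C57BL/6J arrays (4.60, 4.66 and 4.62) above all mutant arrays, the highest of which was at 4.55. Without a filter on low values the mean of the mutant strains minus C57BL/6J was -0.21 (SE 0.06, limma adjusted p = 0.127). Over all 45037 probe sets, C57BL/6J arrays did not overlap the 9 others for 3.69%, and 3 of the 16 member probe sets were among them.

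Hps6, another BLOC-2 subunit, was at 6.60 ± 0.07 in B6-Lyst irides, 6.48 ± 0.15 in the B6-D2 congenic strain, 6.38 ± 0.12 in C57BL/6J and 6.28 ± 0.07 in B6-albino irides (mean ± SD of log2 values, n = 3 each). The 3 B6-Lyst arrays (6.67, 6.59 and 6.53) lay above those of C57BL/6J (6.51, 6.30 and 6.32) and B6-albino (6.24, 6.36 and 6.23). The B6-Lyst and B6-albino ends of this order differed by 0.32 (SE 0.11, limma adjusted p = 0.156), and B6-Lyst and C57BL/6J by 0.22 (SE 0.11, adjusted p = 0.339). Neighbours in the order were 0.12, 0.10 and 0.10 apart, none of them called (adjusted p = 0.75, 0.652 and 0.625). Hps5, the third BLOC-2 subunit, gave values between 4.98 and 5.62 on all arrays, under the filter. Its strain means lay between 5.14 and 5.24, and its highest array was C57BL/6J replicate 1.

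BLOC-3, the exchange factor for Rab32 and Rab38, was measured by 4 probe sets of Hps1 and 1 of Hps4. The Hps1 probe set 1459827_x_at, whose suffix marks probes that can also match other sequences, read 9.31, 9.17 and 9.04 in C57BL/6J, 9.58, 9.38 and 9.74 in B6-Lyst irides, 9.30, 9.23 and 9.23 in B6-albino and 9.49, 9.46 and 9.55 in the B6-D2 congenic irides. B6-Lyst and B6-D2 congenic arrays lay above all C57BL/6J and B6-albino arrays. The difference from C57BL/6J was 0.39 (SE 0.12, limma adjusted p = 0.109) in B6-Lyst, the smallest adjusted p of any member in the comparisons of 2 strains, and 0.33 (SE 0.12, adjusted p = 0.206) in B6-D2 congenic animals. In B6-albino irides it was 0.08 (SE 0.12, adjusted p = 0.721). B6-Lyst exceeded B6-albino by 0.31 (SE 0.12, adjusted p = 0.193), and B6-albino lay 0.24 below B6-D2 congenic (difference -0.24, SE 0.12, adjusted p = 0.613).

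The other Hps1 probe sets showed smaller differences. The set 1448408_at averaged between 6.48 and 6.79 over the strains, with differences from C57BL/6J of 0.27 in B6-Lyst irides, 0.08 in B6-albino and 0.31 in the B6-D2 congenic irides (SE 0.17 each, limma adjusted p between 0.371 and 0.828). The set 1459598_at differed by 0.22, 0.08 and 0.05 in the same order (SE 0.16), so all 3 tested Hps1 probe sets had positive differences in each mutant strain. That sign was not kept in every setting. In B6-albino irides 1459827_x_at was at -0.02 with quantile normalization, 1448408_at at -0.06 with the RNA quality covariate, and 1459598_at at -0.03 without B6-albino replicate 3. In the B6-D2 congenic strain 1459598_at was at -0.09 without B6-D2 congenic replicate 1. The fourth, 1443034_at, lay between 5.0 and 5.42, under the filter. Hps4, the partner of Hps1, was at 9.07 ± 0.21 in C57BL/6J, 8.96 ± 0.08 in B6-Lyst irides, 8.96 ± 0.14 in B6-albino and 9.03 ± 0.10 in the B6-D2 congenic irides (n = 3 each). Its strains overlapped throughout, and the 95% interval of its difference from C57BL/6J ran from -0.40 to 0.18 in B6-Lyst irides, from -0.40 to 0.17 in B6-albino and from -0.33 to 0.25 in the B6-D2 congenic irides.

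**Figure D2:**
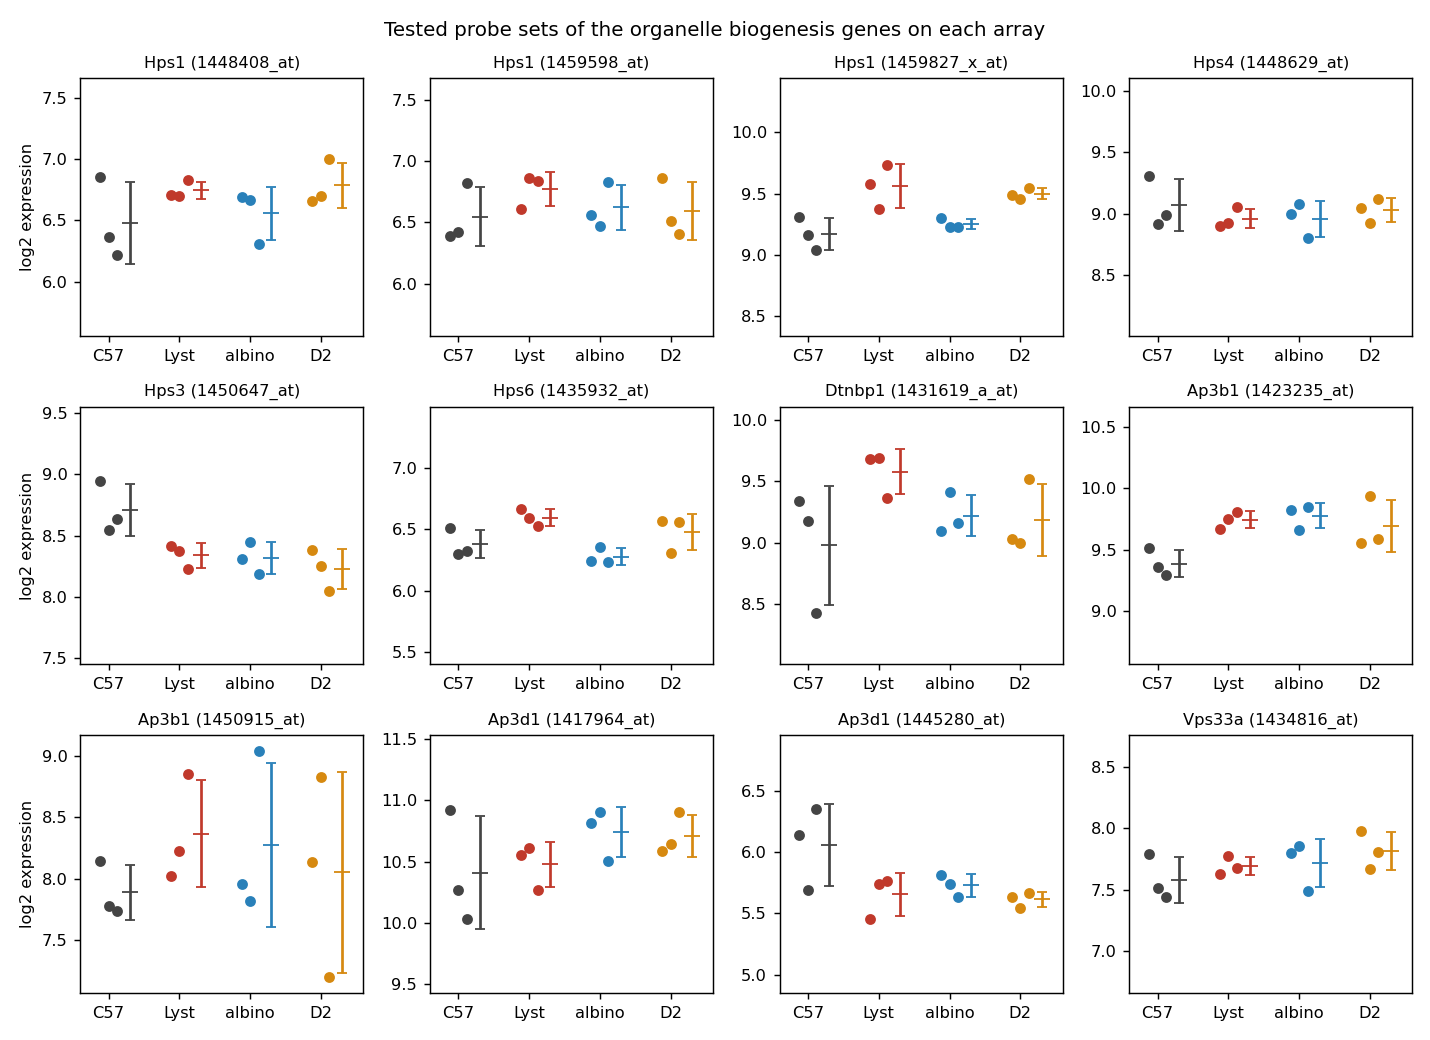
Log2 expression (vertical axis) of the 12 tested probe sets on each array, by strain (C57, C57BL/6J; Lyst, B6-Lyst; albino, B6-albino; D2, B6-D2 congenic). Points are single arrays in replicate order, bars are mean ± SD (n = 3), and all panels span the same range of log2 units; in the Hps3 panel the 3 C57BL/6J points, 8.55 to 8.95, lie above all others.

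Dtnbp1, which encodes dysbindin, a subunit of BLOC-1, had the largest difference of any member. It measured 9.34, 9.17 and 8.43 in C57BL/6J, 9.68, 9.69 and 9.37 in B6-Lyst irides, 9.09, 9.41 and 9.16 in B6-albino and 9.03, 9.0 and 9.52 in the B6-D2 congenic irides. All B6-Lyst arrays lay above all C57BL/6J arrays, the nearest pair being 9.37 and 9.34, and the low value of 8.43 came from C57BL/6J replicate 3. The difference was 0.60 (SE 0.23, limma adjusted p = 0.196) in B6-Lyst irides, 0.24 (SE 0.23, adjusted p = 0.573) in B6-albino and 0.21 (SE 0.23, adjusted p = 0.656) in B6-D2 congenic animals. Without C57BL/6J replicate 3, the array with the high actin difference, these became 0.32, -0.03 and -0.07 (adjusted p = 0.458, 0.949 and 0.922). Macrophage markers (8 of 8 measured) averaged 10.94 to 11.25 on the B6-Lyst arrays and 8.05 to 8.96 on all others, and their part in the Dtnbp1, Hps1 and Hps6 values of that strain was not tested.

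AP-3 was followed through its large subunits. Ap3b1 (1423235_at), which encodes the beta subunit, measured 9.51, 9.36 and 9.29 in C57BL/6J, 9.67, 9.75 and 9.81 in B6-Lyst irides, 9.82, 9.66 and 9.85 in B6-albino and 9.55, 9.94 and 9.59 in the B6-D2 congenic irides. Every mutant array lay above every C57BL/6J array, the reverse of Hps3. The difference from C57BL/6J was 0.36 (SE 0.13, limma adjusted p = 0.172) in B6-Lyst irides, 0.39 (SE 0.13, adjusted p = 0.143) in B6-albino and 0.31 (SE 0.13, adjusted p = 0.252) in B6-D2 congenic animals, and 0.35 (SE 0.10, adjusted p = 0.0975) against the mean of the mutant strains. Without the 3 arrays with high Krt12 that last value was 0.37 (adjusted p = 0.171), and with the tissue marker covariates 0.33 (adjusted p = 0.275). Separation of the 3 C57BL/6J arrays from all 9 others was seen in 4.38% of all tested probe sets and in 2 of 12 members, Hps3 and Ap3b1. For Ap3b1, as for Hps3, the strain cannot be told apart from the spike-in level.

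The second Ap3b1 probe set (1450915_at) varied more than the first. Within C57BL/6J, B6-Lyst and B6-albino its arrays stood in the same order as on the first. In the B6-D2 congenic strain both had their highest value on replicate 2. It ranged from 7.20 on B6-D2 congenic replicate 3 to 9.04 on B6-albino replicate 3, with 8.86 on B6-Lyst replicate 3 and 8.83 on B6-D2 congenic replicate 2. Its pooled SD within strains was 0.58, higher than that of 97.3% of all tested probe sets, where the first probe set had 0.14. The difference from C57BL/6J was 0.48, 0.38 and 0.17 in B6-Lyst, B6-albino and B6-D2 congenic irides (SE 0.41 each, limma adjusted p between 0.59 and 0.852). These had the same sign as those of the first probe set but were too imprecise to check them.

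Ap3d1, the delta subunit of AP-3, was measured at 10.92, 10.27 and 10.04 in C57BL/6J, 10.56, 10.61 and 10.27 in B6-Lyst irides, 10.82, 10.90 and 10.51 in B6-albino and 10.58, 10.64 and 10.90 in the B6-D2 congenic irides (1417964_at). The strains overlapped, and C57BL/6J replicate 1 alone was as high as any mutant array. The differences were 0.07, 0.33 and 0.30 in B6-Lyst, B6-albino and B6-D2 congenic irides (SE 0.21 each, limma adjusted p between 0.398 and 0.906). Its other probe set (1445280_at) was near the filter value and pointed the other way, at 6.14, 5.69 and 6.35 in C57BL/6J and between 5.45 and 5.81 on all mutant arrays. The differences there were -0.40, -0.33 and -0.44 (SE 0.15 each, adjusted p = 0.186, 0.256 and 0.188). Without C57BL/6J replicate 2, the lowest of its strain, the B6-Lyst difference was -0.59 with an adjusted p of 0.0499. The 2 probe sets thus gave opposite signs for the same gene, and neither passed the test with all arrays.

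Vps33a, the SNARE-binding subunit of HOPS, was at 7.58 ± 0.18 in C57BL/6J, 7.69 ± 0.07 in B6-Lyst irides, 7.72 ± 0.20 in B6-albino and 7.82 ± 0.16 in the B6-D2 congenic irides (1434816_at, n = 3 each). All strains overlapped. The 95% interval of the difference from C57BL/6J ran from -0.20 to 0.42 in B6-Lyst irides, from -0.17 to 0.45 in B6-albino and from -0.07 to 0.55 in the B6-D2 congenic irides. The second Vps33a probe set (1453742_at) lay under the filter, between 5.04 and 5.47. Without a filter on low values its differences from C57BL/6J were -0.05, 0.05 and -0.15 in the same order (SE 0.11 each), so it kept the sign of the first in B6-albino alone.

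**Figure D3:**
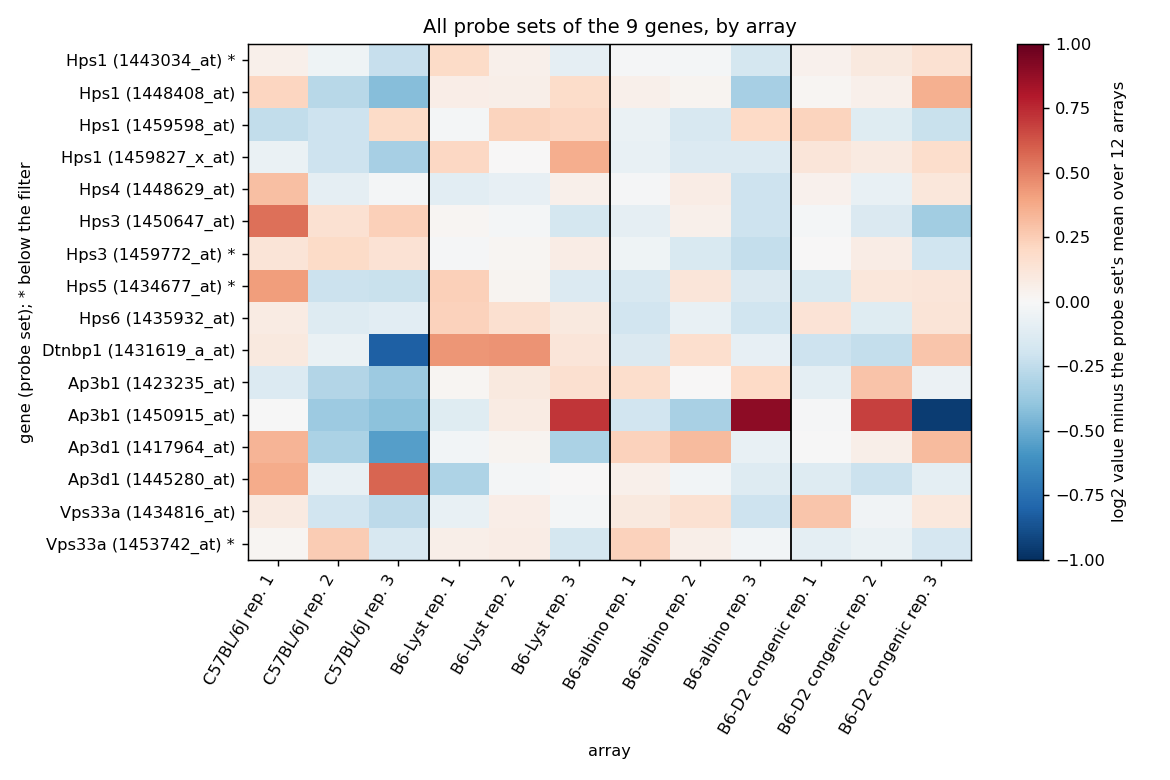
Log2 value of all 16 member probe sets (rows) on the 12 arrays (columns), as the difference from the probe set's mean over all arrays; a star marks the 4 probe sets under the filter. The strongest colours are single arrays of Ap3b1 (1450915_at, 7.20 to 9.04) and the C57BL/6J replicate 3 value of Dtnbp1 (8.43).

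Arrays of 2 strains did not overlap for 5 of 12 members between B6-Lyst and C57BL/6J (22.8% of all tested probe sets), 2 between B6-albino and C57BL/6J (23.5%) and 4 between B6-D2 congenic and C57BL/6J (18.1%). Between mutant strains this held for 3 members in B6-Lyst against B6-albino (30.2% of all), 0 in B6-Lyst against B6-D2 congenic (17.2%) and 1 in B6-albino against B6-D2 congenic (14.2%). C57BL/6J replicate 3 was the lowest of all 12 arrays for 6 of 12 tested probe sets and the highest for 1, and C57BL/6J replicate 1 was the highest for 3 and the lowest for 1. How often these arrays were extreme over all tested probe sets is not given, so these counts do not set the members apart. Within strains, the pooled SD of the members lay between 0.11 for Hps6 and 0.58 for Ap3b1 (1450915_at).

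**Figure D4:**
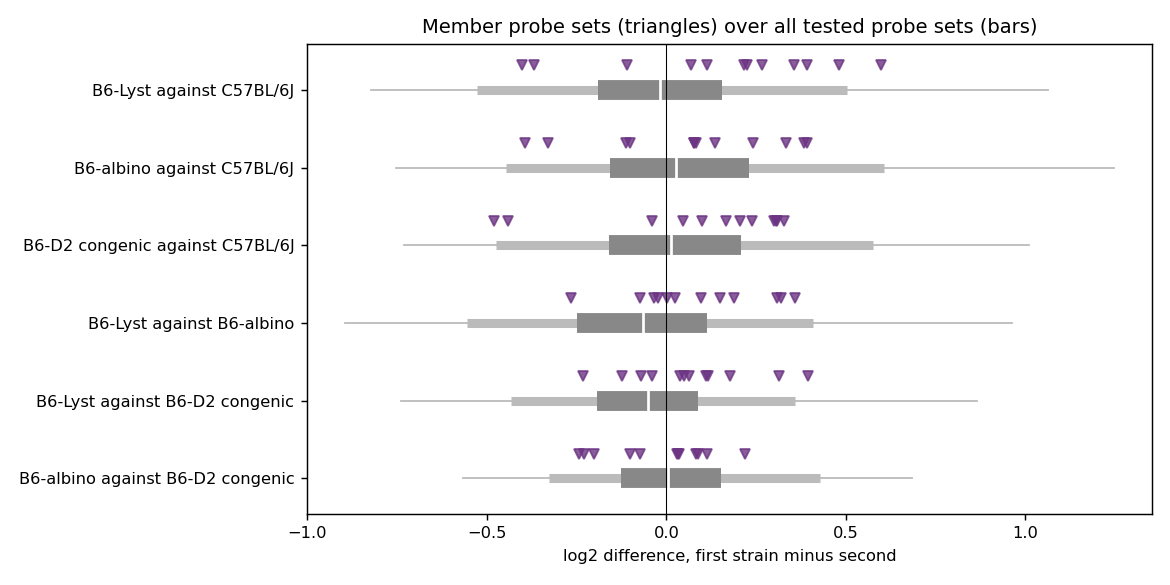
Log2 differences of the 12 tested member probe sets (triangles) in the 6 comparisons of strains, over all 27022 tested probe sets (white line, median; dark bar, 25th to 75th percentile; light bar, 5th to 95th; thin line, 1st to 99th). All member differences lie between -0.48 and 0.60.

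No gene of a wider pathway list was called. The list of 49 genes held further BLOC-1 subunits, AP-3 and AP-1 subunits, HOPS and CORVET subunits, Rab GTPases with their partners, and cargo proteins, and did not hold Gpnmb. Of these 47 had a tested probe set, and limma called 0 higher and 0 lower in each of the 6 comparisons. At an unadjusted p under 0.05 the count was 3 of 47 between B6-Lyst and C57BL/6J, 8 of 47 between B6-albino and C57BL/6J and 7 of 47 between B6-D2 congenic and C57BL/6J. Over all tested probe sets that share was 17.4%, 19.4% and 17.8%. Between mutant strains the count was 1 of 47 in B6-Lyst against B6-albino (19.1% of all). It was 2 of 47 in B6-Lyst against B6-D2 congenic (9.7%) and 2 of 47 in B6-albino against B6-D2 congenic (8.49%). None of the counts lay above the share over all probe sets, and the lower counts were not tested. These counts take 1 probe set per gene, the one with the highest mean, and none of the 9 other HOPS, CORVET and VPS33B complex genes was among them by that probe set. Other probe sets of Vps8, Vps41 and Vps11, named after their values were seen, were at an unadjusted p under 0.05 in at least 1 strain, for Vps11 in B6-albino alone. Vps8 (1434050_at), a CORVET subunit, was at 7.84 ± 0.17 in C57BL/6J and 8.62 ± 0.39 in B6-Lyst irides (n = 3 each), with differences from C57BL/6J of 0.78, 0.70 and 0.53 in B6-Lyst, B6-albino and B6-D2 congenic irides (SE 0.19 each, limma adjusted p = 0.0557, 0.102 and 0.203). Its representative probe set (1454810_s_at) differed by 0.36, 0.45 and 0.42 (SE 0.22 each, adjusted p between 0.27 and 0.428). Vps41 (1437901_a_at), a HOPS subunit, differed by -0.53 in B6-Lyst irides (SE 0.16, adjusted p = 0.111), where its representative (1433666_s_at) differed by 0.13. Of the 6 tested BLOC-1 partners of Dtnbp1, 1, 2 and 2 were at an unadjusted p under 0.05 in the same order of strains, with list medians of 0.18, 0.12 and 0.15, against -0.02, 0.03 and 0.01 over all tested probe sets. Bloc1s2 was at 7.99 ± 0.13 in C57BL/6J, 8.47 ± 0.25 in B6-Lyst irides, 8.48 ± 0.17 in B6-albino and 8.33 ± 0.13 in the B6-D2 congenic irides (n = 3 each, limma adjusted p between 0.122 and 0.267).

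The other AP-3 subunits held the widest difference of the list. Ap3b2, the beta subunit of the neuronal form of AP-3, measured 5.65, 6.38 and 5.29 in C57BL/6J, 7.0, 5.80 and 6.98 in B6-Lyst irides, 7.50, 6.87 and 6.72 in B6-albino and 6.64, 7.32 and 6.80 in the B6-D2 congenic irides. Its differences from C57BL/6J were 0.82, 1.26 and 1.15 in that order (SE 0.36 each, limma adjusted p = 0.267, 0.113 and 0.171), named here after the values were seen. Photoreceptor and retina markers (6 of 7 measured) averaged 6.96 to 8.89 on the C57BL/6J arrays, 7.54 to 9.61 in B6-Lyst irides, 7.64 to 10.13 in B6-albino and 7.25 to 10.02 in the B6-D2 congenic irides. With the same tissue covariates the Ap3b2 differences were 0.81, 0.60 and 0.58 (adjusted p = 0.143, 0.479 and 0.479). Ap1s2 (1447903_x_at), a small subunit of the AP-1 adaptor, was 0.62 lower in B6-albino than in C57BL/6J irides (difference -0.62, SE 0.14, adjusted p = 0.0711), the smallest adjusted p against C57BL/6J among the 47 representative probe sets. Its suffix marks probes that can also match other sequences. In B6-Lyst irides this probe set differed by -0.22, and other Ap1s2 probe sets by -0.40 (1444361_at), 0.09 (1452657_at) and 0.03 (1460036_at). The Rab38 difference, in the GTPase that BLOC-3 activates, was 0.41 in B6-albino and 0.40 in the B6-D2 congenic irides (SE 0.17 each, adjusted p = 0.213 and 0.258).

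For each of the 8 tested members the gene with the most similar pattern was found as the smallest root mean square distance between profiles standardized over the 12 arrays, among 13189 genes. No member was nearest to another member, which with so few members among so many genes does not show whether they vary together. Hps3 lay nearest to Txnip (distance 0.32), Dtnbp1 to Serpinb6a (0.29), Ap3d1 to Smpd1 (0.12), Ap3b1 to Ptp4a2 (0.38), Hps1 to Rflna (0.37), Hps4 to Sgsm2 (0.36), Hps6 to Antxr2 (0.35) and Vps33a to Pars2 (0.42). Txnip, which encodes a thioredoxin-binding protein, was likewise higher on all 3 C57BL/6J arrays (10.30 to 10.79) than on the mutant arrays (9.29 to 10.19). Smpd1, the acid sphingomyelinase of lysosomes, followed Ap3d1 (1417964_at) down to the order of the C57BL/6J arrays (11.22, 10.36 and 9.98). The other Ap3d1 probe set (1445280_at) had a different order. The genes named are the nearest of many, found by 1 probe set per gene, and carry no test.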

How the data were processed

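Iris RNA of 4 mouse strains was measured on 12 one-colour Affymetrix arrays, 3 per strain, and samples were grouped by the strain in their titles. The values the authors deposited are log2 signals (between 2.98 and 14.29, column medians 6.05 to 6.13). That scale was read from the values. How background was corrected and arrays were normalized is not stated in the labels or the file header. The labels call the samples biological replicates, and precision is limited by their number.

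Gene names came from the platform annotation, with symbols updated through a RefSeq table (GRCm38.p6). Of 45037 probe sets, 34945 had 1 symbol, 932 several and 9160 none, and 34741 matched the table. Only those with 1 symbol were named. The 64 controls were left out. Probe sets with a mean over all arrays at or above the 40th percentile (5.653) were tested, 27022 in all, and a gene was represented by its highest.

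All 12 arrays entered 1 linear model of strain means, in limma 3.58.1 in R 4.3.3, with an intensity trend, for all 6 pairs of strains, two-sided, with Benjamini-Hochberg adjustment over all tested probe sets and a threshold of 0.05. The fit was tested on simulated data. Alternatives changed the filter, scaling, arrays, covariates, variance trend and replicate block. The members, lists and alternatives were chosen with earlier results of these data known. Named genes were all members, any called gene of the wider lists, the mutated genes and the nearest pattern of each member. Other genes named were chosen after their values were seen.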

Additional observations from a re-analysis of the deposited data

How the results depend on the processing

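Of 174 counts of called member probe sets under 22 alternative settings, 171 were 0, as with the settings reported. With quantile normalization 1 member, Hps3, was called between the mean of the mutant strains and C57BL/6J. Leaving out each array in turn gave 0 to 1 called members between B6-Lyst and C57BL/6J and 0 to 1 for the mean of the mutant strains. The single call in each was Ap3d1 (1445280_at) without C57BL/6J replicate 2 (adjusted p = 0.0499 and 0.0458). The cause was not tested. Of 1808 member differences under these settings, 1726 kept their sign and 82, none of them called, changed it.

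Deviations from the strain means correlated between -0.43 and 0.39 for arrays with the same replicate number and between -0.49 and 0.53 for other numbers. These ranges overlap and show no pairing by number, but pairing was not tested. With the number as a replicate block, 0 members were called in each comparison. Over all probe sets the calls were then 485, 0 and 5 for B6-Lyst, B6-albino and B6-D2 congenic against C57BL/6J, where the reported fit gave 684, 94 and 11. Over all settings those counts ran from 252 (without B6-Lyst replicate 1) to 903 (quantile normalization), from 0 to 218 (quantile) and from 3 (these 6 arrays alone) to 44 (without B6-D2 congenic replicate 1). Between mutant strains they ran from 232 (without B6-Lyst replicate 1) to 1184 (498 reported), 137 to 358 (252) and 6 to 35 (23), for any difference among strains from 256 to 807 (565), and for the mean of the mutant strains from 18 to 984 (474), the lowest of both without the 3 arrays with high Krt12. The number of arrays, 3 per strain, limits what can be called, and a p above the threshold does not show that values did not differ.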
